A study of Mus musculus with 6 samples.

Results

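The genes described here are 46 cytosolic and mitochondrial chaperones, their cochaperones and 2 heat shock transcription factors, out of 18446 genes in the table. They were chosen by name, from the known protein families, and each was matched through its NCBI gene identifier. No measured value served as a rule for the choice, but earlier results of these data were known when it was made. The samples were naive CD4+ T cells, taken from the spleen and lymph nodes and purified on a flow sorter, from C57BL/6 mice aged 6 to 8 weeks, and stimulated with antibodies to CD3 and CD28, the signalling chains of the antigen receptor and its costimulator. Bulk RNA-seq gave 1 library per genotype and time: labelled Zak-KO (genotype Zak-/-) at 0, 6 and 48 h, and wild type (WT) at 0, 6 and 48 h. Zak, whose gene is Map3k20, is a stress-activated MAP kinase kinase kinase. The labels also speak of a conditional deficiency in T cells, and the 2 wordings were not reconciled here; they name neither a Cre driver nor how many mice were pooled. Values are FPKM, which counts fragments for a gene relative to its transcript length and to the mapped fragments of its library.

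Chaperones bind unfolded or partly folded proteins and help them reach their working shape. HSP70 proteins act first on many chains, helped by J-domain proteins that deliver substrates and trigger ATP hydrolysis and by exchange factors that release the nucleotide. HSP90 acts later, on kinases and steroid receptors among others, while prefoldin hands actin and tubulin to the closed ring of the CCT chaperonin. In mitochondria, Hspa9 pulls in imported chains and the Hspd1 and Hspe1 chamber folds them. Heat and other protein damage turn on a part of this set through Hsf1, which binds repeated, inverted NGAAN units called heat shock elements, whereas a T cell that leaves rest enlarges its protein synthesis without heat.

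Promoter windows from 250 bases before to 50 bases after each start were given by RefSeq (GRCm38.p6) for 38 of the 46 genes. The 3 sequences below are shown because they belong to the genes with the largest responses and to a heat-inducible gene that was low at every time. The capitals mark letters that fit 2 or more heat shock units, GAANNTTC or TTCNNGAA, searched on both strands.
Hspd1 and Hspe1: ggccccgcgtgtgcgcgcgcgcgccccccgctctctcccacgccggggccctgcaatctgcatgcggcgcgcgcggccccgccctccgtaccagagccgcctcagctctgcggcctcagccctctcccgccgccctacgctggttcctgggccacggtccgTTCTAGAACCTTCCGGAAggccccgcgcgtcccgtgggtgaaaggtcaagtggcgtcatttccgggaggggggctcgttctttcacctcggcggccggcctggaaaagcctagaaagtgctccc
Hsph1: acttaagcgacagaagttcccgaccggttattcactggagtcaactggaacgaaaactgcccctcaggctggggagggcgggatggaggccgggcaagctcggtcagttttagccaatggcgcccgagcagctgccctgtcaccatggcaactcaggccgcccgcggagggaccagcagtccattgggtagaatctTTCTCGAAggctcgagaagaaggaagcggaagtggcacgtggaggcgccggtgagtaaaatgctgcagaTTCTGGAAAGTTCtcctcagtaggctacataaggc
Hspa1b: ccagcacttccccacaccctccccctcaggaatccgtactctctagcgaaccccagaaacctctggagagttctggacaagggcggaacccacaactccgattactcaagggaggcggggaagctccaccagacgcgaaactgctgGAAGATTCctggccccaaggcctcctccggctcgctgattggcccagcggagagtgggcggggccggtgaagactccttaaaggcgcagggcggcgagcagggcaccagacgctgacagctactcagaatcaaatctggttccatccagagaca

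The first sequence, chr1:55087898-55088182 on the plus strand, lies where the windows of Hspd1 (chr1:55077833-55088243, minus strand) and Hspe1 (chr1:55088148-55091317, plus strand) overlap. The 2 genes point away from each other, and the starts used by the promoter table were 216 bases apart. The capitals form 1 run of 4 units over 18 bases, from 89 to 72 bases before the Hspe1 start. The Hsph1 sequence is chr5:149636266-149636565 on the minus strand. For the start used here, 2 units lie from 54 to 47 bases before it and 3 units from 15 to 27 bases after it. Both sites lie inside the Hsph1 gene span (chr5:149616843-149636498), so these distances hold for that start only. The Hspa1b sequence is chr17:34959189-34959488 on the minus strand, with 2 units from 104 to 97 bases before the start. The Hspa1a window has the same base as that of Hspa1b at 296 of its 300 positions.

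Of the 38 genes with a window, 15 (39.5%) had at least 2 units, against 17.0% of 27025 genes. A gene counted once if any of its windows matched, so a gene with more listed starts had more chances. Runs of 3 units occurred in 4 of the 38 (10.5%), Dnajb6, Hspd1, Hspe1 and Hsph1, against 0.662% of all. Runs of 4 units occurred in Hspd1 and Hspe1, which share the site, and in 8 genes of the whole table (0.0296%). The E-box CACGTG, letters bound by Myc with Max among others, was in the windows of Fkbp5, Hsf2, Hspd1 and Hsph1 (10.5%), against 8.09% of all. These counts describe letters and not binding.

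The sums of FPKM per library lay between 496045 and 546113, and the sequencing depth cannot be read from them. Markers of T cells (Cd3e, Cd3d, Cd3g, Cd4 and Cd28) summed to between 1379.42 and 1472.89 FPKM. The 5 B cell markers summed to 7.29, 5.49 and 7.91 FPKM in the libraries labelled Zak-KO at 0, 6 and 48 h, against 3.49, 4.92 and 5.48 FPKM in WT. Sums for myeloid cells (0.61 to 1.33 FPKM), NK cells (0 to 0.52 FPKM) and 4 red cell genes (0.16 to 2.6 FPKM) were low, and the 2 CD8 genes summed to between 8.88 and 12.78 FPKM. Map3k20 itself was listed at 0.10, 0.10 and 1.61 FPKM at 0, 6 and 48 h in the libraries labelled Zak-KO, against 0.17, 0.19 and 1.35 FPKM in WT. Its level at 48 h therefore goes against the label, although a value per gene cannot show whether single exons are lost.

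Each group is 1 library, so no difference below has a replicate check and none was tested. A gene is called higher or lower where log2(FPKM + 1) differed by 2-fold or more between 2 libraries, a scale that understates changes of low genes. Of the 46 genes, 44 had a mean of 1 FPKM or more over the 6 libraries and entered the counts, as did 10347 genes of the table. Hspa1a (mean 0.957 FPKM) and Hspb1 (mean 0.722 FPKM) fell short of it. In bulk RNA, fewer cells of a type and less RNA per cell cannot be told apart, and FPKM gives a gene's share of the library and no amount per cell.

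Much of the folding machinery was higher after stimulation, in both genotypes. Together the 46 genes made up 0.699, 1.31 and 1.44% of all FPKM at 0, 6 and 48 h in the libraries labelled Zak-KO, against 0.689, 1.31 and 1.55% in WT. At 6 h, 13 of the 44 genes were at least 2-fold higher than at 0 h in the library labelled Zak-KO (9.08% of all genes were) and none lower (1.52% were), with a median log2 change of 0.74 against -0.08 for all genes. In WT, 15 were higher at 6 h (8.94% of all genes) and none lower (1.39%), with a median of 0.80 against -0.06. At 1.5-fold, 26 were higher (16.7% of all genes) and 2 lower (13.3%) at 6 h under the label Zak-KO, and 28 (17.0%) and 0 (13.0%) in WT. The 2 genotypes shared 11 of the 2-fold calls, which is 11 of 13 for the label Zak-KO and 11 of 15 for WT. Shared calls over all genes were not counted, so this overlap cannot be read as a trait of the chaperones.

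At 48 h against 0 h, 22 of the 44 were higher in the library labelled Zak-KO (18.5% of all genes) and 1, Dnajc7, was lower (12.0%), with a median log2 change of 1.03 against 0.06 for all genes. In WT, 23 were higher (17.8%) and none lower (12.3%), with a median of 1.09 against 0.00. All 22 that were higher under the label Zak-KO were also higher in WT, where Cct7 was added. Here too, the overlap over all genes was not counted. The 6 h and 48 h changes both use the same 0 h library of each genotype. Between 6 and 48 h, only Pfdn1 and Bag2 were 2-fold higher in the library labelled Zak-KO (10.8% of all genes), and the same 2 in WT (9.32%), with none lower in either (6.55 and 6.15% of all genes). At 1.5-fold, the 48 h values against 0 h gave 29 higher (29.7%) and 4 lower (23.4%) under the label Zak-KO, and 33 (28.2%) and 4 (24.7%) in WT. Against 6 h they gave 8 higher (20.8%) and 2 lower (16.4%) under the label Zak-KO, and 5 (17.4%) and 2 (16.6%) in WT.

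**Figure D1:**
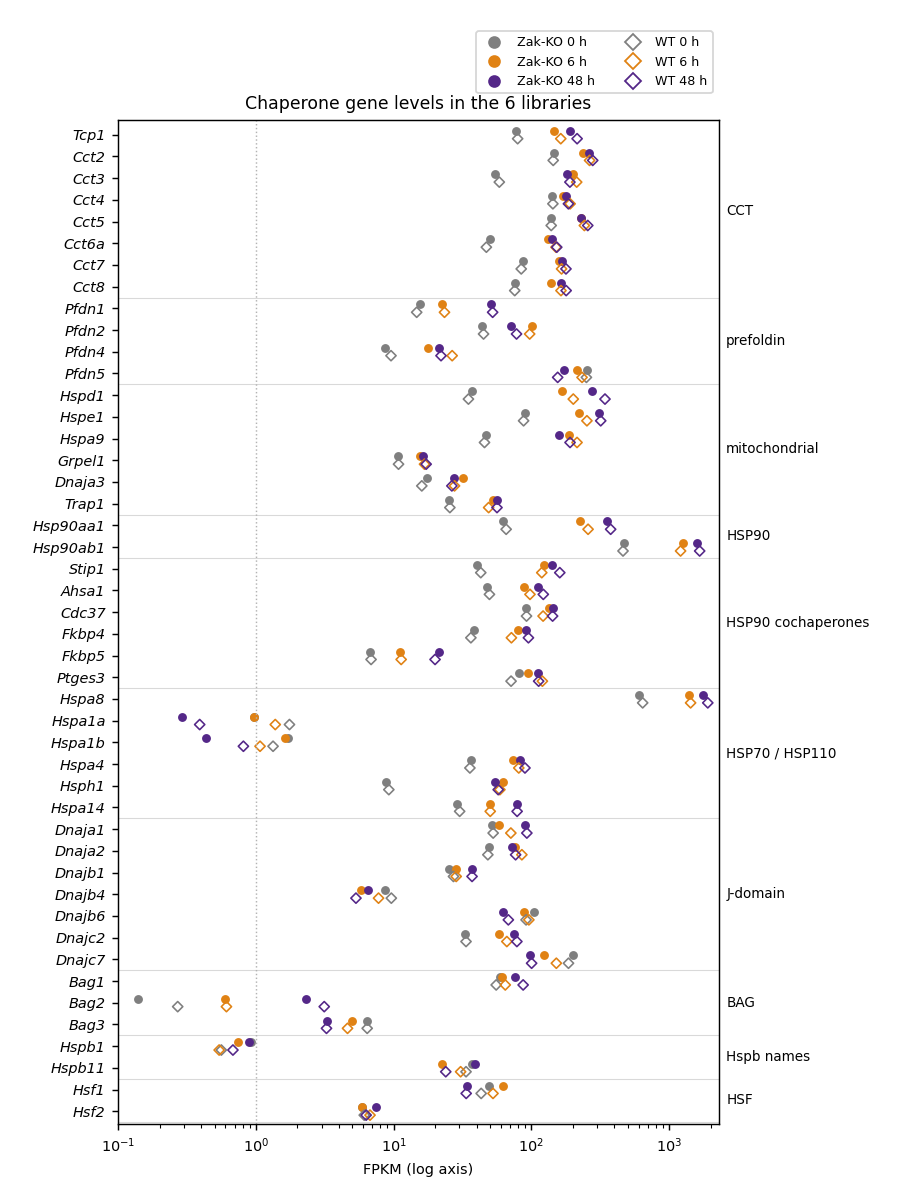
FPKM of each of the 46 genes (rows, by role) in the 6 libraries, on a log axis. Filled circles are the libraries labelled Zak-KO, open diamonds below them WT; grey is 0 h, orange 6 h and purple 48 h, and the dotted line is 1 FPKM. In most rows grey lies left of orange and purple, and circles and diamonds of a colour lie close together.

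The constitutive HSP70 of the cytosol and the 2 HSP110 proteins that act on it were 2-fold higher at 48 h in both genotypes. Hspa8 (chr9:40801276-40805202), which folds new chains and uncoats clathrin vesicles, was the most abundant of the 46, at 603, 1394 and 1771 FPKM at 0, 6 and 48 h in the libraries labelled Zak-KO, against 643, 1433 and 1909.95 FPKM in WT. It ranked 57 among all genes at 48 h under the label Zak-KO and 53 in WT, against 113 and 106 at 0 h. Hsph1 (chr5:149616843-149636498), an HSP110 protein that exchanges nucleotide on HSP70, was at 8.79, 61.7 and 54.4 FPKM in the libraries labelled Zak-KO, against 9.22, 59.1 and 57.4 FPKM in WT.

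Hsph1 had the largest 6 h response of the 46 genes in both genotypes, a log2 change of 2.68 (6.41-fold) under the label Zak-KO and 2.56 (5.88-fold) in WT, and its 6 and 48 h values were close. Hspa4, the other HSP110 protein of the list, was at 36.6, 73.9 and 82.7 FPKM under the label Zak-KO, against 35.8, 81.0 and 89.8 FPKM in WT. Its 6 h change was 0.99 under the label Zak-KO, just short of 2-fold, and 1.16 in WT. Hspa14, an HSP70 protein that works at the ribosome with the J-domain protein Dnajc2, was at 28.9, 49.9 and 78.5 FPKM under the label Zak-KO, against 30.1, 50.2 and 78.8 FPKM in WT. It was 2-fold higher by 48 h, with log2 changes of 1.41 and 1.36, and Dnajc2 likewise, with 1.17 and 1.20.

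The heat-inducible HSP70 genes stayed low at every time. Hspa1a (chr17:34969359-34972156) was at 0.96, 0.97 and 0.29 FPKM at 0, 6 and 48 h in the libraries labelled Zak-KO, against 1.75, 1.38 and 0.39 FPKM in WT. Hspa1b (chr17:34956429-34959238) was at 1.71, 1.63 and 0.43 FPKM under the label Zak-KO, against 1.33, 1.07 and 0.81 FPKM in WT. All 4 values at 48 h were below every value of the same gene at the earlier times.

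These 2 neighbouring copies cannot be told apart securely. Of the stretches of 50 bases in their GENCODE M21 transcripts, 60.3% for Hspa1a and 62.3% for Hspa1b also occur in other genes. Their sum was 2.67, 2.60 and 0.72 FPKM under the label Zak-KO, against 3.08, 2.45 and 1.20 FPKM in WT. The level of Hspa8 was 226, 536 and 2459 times that sum under the label Zak-KO, and 209, 585 and 1592 times in WT. As separate genes, Hspa1b changed by a log2 of -0.92 at 48 h under the label Zak-KO, and the sum by -1.09.

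**Figure D2:**
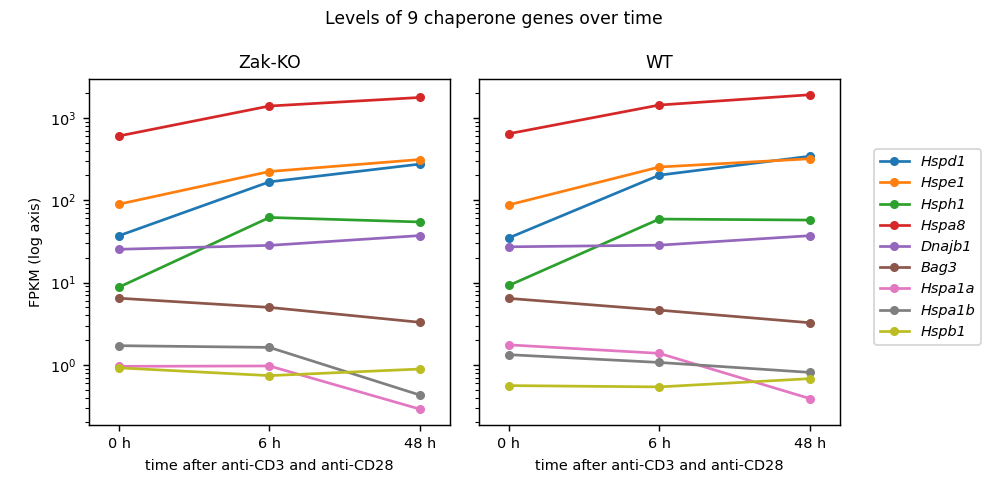
FPKM of 9 chaperone genes at 0, 6 and 48 h on a log axis, labelled Zak-KO on the left and WT on the right; each point is 1 library. Hspa8, Hspd1, Hspe1 and Hsph1 climb after 0 h, Dnajb1 runs nearly level, and Bag3, Hspa1a and Hspa1b are lower at 48 h.

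Dnajb1, Bag3 and Hspb1 are also known to be induced by heat. Dnajb1 and Bag3 were not called higher at any time, and Hspb1 fell short of the level filter and was not counted. These genes were picked out after their values were seen. Not all heat-inducible genes were alike: Hsph1, Hsp90aa1, Hspd1 and Hspe1, which heat raises too, were 2-fold higher at 6 and 48 h. Dnajb1, the J-domain partner of inducible HSP70, was at 25.4, 28.3 and 37.2 FPKM under the label Zak-KO, against 27.2, 28.4 and 37.1 FPKM in WT. Bag3, which links HSP70 to autophagy, was at 6.45, 4.99 and 3.29 FPKM under the label Zak-KO, against 6.42, 4.62 and 3.25 FPKM in WT. Hspb1, the small heat shock protein also called HSP25 in mice, was between 0.74 and 0.92 FPKM under the label Zak-KO and between 0.54 and 0.68 FPKM in WT.

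Bag3 values thus descended at each step in both genotypes, while Hspb1, with a mean of 0.722 FPKM, was below the level counted. Of the 15 genes with at least 2 heat shock units in a window, 13 passed the level filter. Of these 13, 5 were 2-fold higher at 48 h under the label Zak-KO and 5 in WT. Of the 23 genes with a window and no such letters, 11 were higher under the label Zak-KO and 12 in WT. Of the 8 genes without a window, among them Hspa8, Hsp90aa1, Hsp90ab1 and Hspa9, 6 were higher in each genotype. Of all genes, 18.5% were higher under the label Zak-KO and 17.8% in WT. The median log2 changes at 48 h were 0.77 with the letters, 0.94 without them and 1.59 with no window under the label Zak-KO, and 0.88, 1.07 and 1.67 in WT. The letters were present both in Hspd1 and Hsph1, with the largest changes, and in Hspa1b and Bag3, with values below those at 0 h.

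The HSP90 pair was high and higher still after stimulation. Hsp90ab1 (chr17:45567778-45573261), the constitutive form, was at 469, 1269.6 and 1606 FPKM at 0, 6 and 48 h in the libraries labelled Zak-KO, against 463, 1212 and 1667 FPKM in WT. Hsp90aa1 (chr12:110691036-110696395), the form more open to induction, was at 62.6, 226 and 355 FPKM under the label Zak-KO, against 65.6, 258 and 376 FPKM in WT. At 48 h the log2 change of Hsp90aa1 was 2.48 under the label Zak-KO and 2.50 in WT, and that of Hsp90ab1 1.78 and 1.85.

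The pair therefore drew closer: Hsp90ab1 was 7.48, 5.61 and 4.52 times Hsp90aa1 under the label Zak-KO, and 7.06, 4.70 and 4.43 times in WT. Of the 50-base stretches of Hsp90aa1, 47.5% also occur in other genes, so its level and these ratios are uncertain.

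Of the 6 HSP90 cochaperones, 4 were 2-fold higher at 48 h in each genotype: Stip1, Ahsa1, Fkbp4 and Fkbp5. Stip1, which passes clients over to HSP90 by holding it and HSP70 together, was at 40.0, 122 and 140.2 FPKM under the label Zak-KO, against 42.9, 119 and 161 FPKM in WT. Ahsa1, which speeds up the HSP90 ATPase, was at 47.2, 88.1 and 112 FPKM under the label Zak-KO, against 49.6, 97.7 and 122 FPKM in WT. The immunophilin Fkbp4 was at 38.6, 80.2 and 90.9 FPKM under the label Zak-KO, against 36.4, 71.6 and 95.2 FPKM in WT.

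The immunophilin Fkbp5, which lowers steroid receptor affinity and is itself a glucocorticoid target, was at 6.69, 11.2 and 21.2 FPKM under the label Zak-KO, against 6.85, 11.3 and 19.97 FPKM in WT. It passed 2-fold at 48 h only, as did Ahsa1 in both genotypes and Fkbp4 in WT. Cdc37, which brings kinases to HSP90, changed by a log2 of 0.64 at 48 h under the label Zak-KO and 0.62 in WT, and Ptges3, the p23 protein that holds the closed HSP90 state, by 0.44 and 0.66. The calls of Fkbp4 at 6 h (1.04 under the label Zak-KO) end with a pseudocount of 5 FPKM or upper quartile scaling.

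The mitochondrial chaperonin showed the widest change of the 46 genes. Hspd1, the HSP60 that forms its chamber, was at 37.1, 167 and 275 FPKM at 0, 6 and 48 h in the libraries labelled Zak-KO, against 34.9, 201 and 342 FPKM in WT. Its 48 h log2 change was 2.86 (7.24-fold) under the label Zak-KO and 3.26 (9.57-fold) in WT, the largest of the list in both. This rank depends on the pseudocount, since the scale understates low genes. Under the label Zak-KO, Bag2 was at 0.14 FPKM at 0 h and 2.32 FPKM at 48 h, a larger ratio of FPKM. Hspe1, the HSP10 lid, was at 89.6, 223 and 312 FPKM under the label Zak-KO, against 87.8, 253 and 319 FPKM in WT.

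Although the 2 genes share the promoter printed above, they did not change in step. Hspe1 was 2.42, 1.34 and 1.14 times Hspd1 under the label Zak-KO, and 2.52, 1.26 and 0.93 times in WT. Copies elsewhere touch both, with 39.7% of the 50-base stretches of Hspd1 and 18.4% of those of Hspe1 found in other genes. The spans of the 2 genes also overlap at their starts, and the sources used here do not say whether strand was used in counting. The part of either in the ratio was not tested.

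Hspa9, the HSP70 of the matrix, was at 46.9, 188 and 158 FPKM under the label Zak-KO, against 45.6, 215 and 191 FPKM in WT, so both genotypes had their highest value at 6 h. Its exchange factor Grpel1 moved less, at 10.8, 15.6 and 16.3 FPKM under the label Zak-KO, against 10.8, 16.7 and 17.2 FPKM in WT. Hspa9 was 4.34, 12.0 and 9.70 times Grpel1 under the label Zak-KO, and 4.21, 12.8 and 11.1 times in WT. Its J-domain partner Dnaja3 changed by a log2 of 0.64 at 48 h under the label Zak-KO and 0.69 in WT. Trap1, the HSP90 of mitochondria, was at 25.3, 52.2 and 56.4 FPKM under the label Zak-KO, against 25.6, 48.9 and 56.3 FPKM in WT. Its calls were close to the threshold (1.01 at 6 h and 1.12 at 48 h under the label Zak-KO, 1.11 at 48 h in WT) and end under another scaling.

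**Figure D3:**
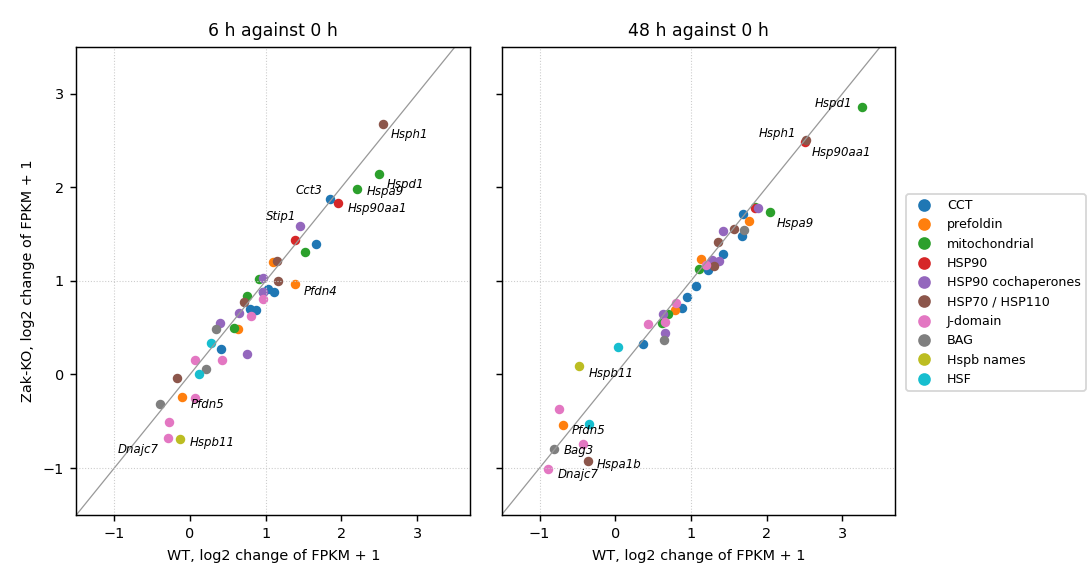
Log2 change of FPKM + 1 against 0 h for the 44 genes that entered the counts, labelled Zak-KO on the vertical axis and WT on the horizontal one, at 6 h (left) and 48 h (right). Colours give the role, the grey line is equality and dotted lines mark 2-fold. Points follow the line, with Hspd1 below it at both times and Hspb11 off it on opposite sides.

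The 8 genes of the CCT chaperonin, whose proteins make up each ring in equal numbers, started unequal and came closer together. Cct2, Cct5 and Cct4 were already high at 0 h, with 147, 139 and 141 FPKM under the label Zak-KO and 144, 139 and 143 FPKM in WT. Cct6a and Cct3 were lowest at 0 h, with 49.7 and 54.3 FPKM under the label Zak-KO and 47.1 and 58.5 FPKM in WT. The subunits that began low changed most.

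Cct3 had 202 FPKM at 6 h and 181 at 48 h under the label Zak-KO, against 213 and 190.4 FPKM in WT. Cct6a had 133 and 141 FPKM under the label Zak-KO, against 151 and 153 FPKM in WT. Cct4, in contrast, had 171 and 178 FPKM under the label Zak-KO, against 191 and 186 FPKM in WT, a log2 change at 48 h of 0.33 and 0.37.

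At 48 h, Cct3, Cct6a, Tcp1 and Cct8 were 2-fold higher than at 0 h in both genotypes, and Cct7 in WT, where its log2 change was 1.07 against 0.94 under the label Zak-KO. The highest subunit was 2.95, 1.79 and 1.86 times the lowest under the label Zak-KO, and 3.06, 1.75 and 1.82 times in WT. The coefficient of variation over the 8 genes was 41.6, 22.8 and 20.4% under the label Zak-KO, and 41.2, 21.5 and 21.0% in WT. Calls near the threshold end under another scaling or a pseudocount of 5 FPKM: Tcp1 and Cct8 at 6 h in WT, Cct8 at 48 h under the label Zak-KO and Cct7 at 48 h in WT.

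**Figure D4:**
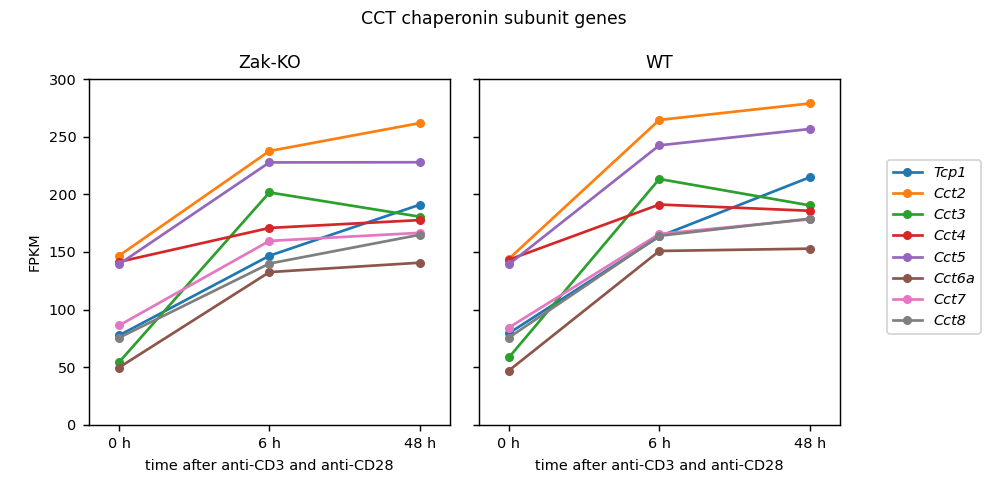
FPKM of the 8 CCT subunit genes at 0, 6 and 48 h, labelled Zak-KO on the left and WT on the right; each point is 1 library. The lines start in a high and a low set, from 49.7 to 147 FPKM under the label Zak-KO, and the highest is 1.79 times the lowest at 6 h there, against 2.95 times at 0 h.

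The prefoldin subunits went separate ways. Pfdn1 was at 15.6, 22.3 and 50.8 FPKM at 0, 6 and 48 h under the label Zak-KO, against 14.7, 23.4 and 52.3 FPKM in WT, and most of its change came after 6 h, with log2 changes of 1.15 and 1.13 from 6 to 48 h. Pfdn2 was at 43.6, 102 and 70.9 FPKM under the label Zak-KO, against 44.9, 97.1 and 78.0 FPKM in WT, highest at 6 h. Pfdn4 was at 8.58, 17.7 and 21.4 FPKM under the label Zak-KO, against 9.56, 26.6 and 22.1 FPKM in WT.

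Pfdn5, the most abundant prefoldin and one known to bind Myc, had its highest value at rest. It was at 254, 214 and 174 FPKM under the label Zak-KO, against 251, 233 and 155 FPKM in WT, log2 changes at 48 h of -0.54 and -0.69 that did not reach 2-fold. Pfdn5 was 29.6, 12.1 and 8.11 times Pfdn4 under the label Zak-KO, and 26.2, 8.78 and 7.04 times in WT. The calls of Pfdn4 at 48 h end with a pseudocount of 5 FPKM, where they are 0.96 under the label Zak-KO and 0.89 in WT, and that of Pfdn2 at 6 h in WT ends with upper quartile scaling, at 0.98.

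The J-domain proteins, BAG factors and heat shock factors held few 2-fold calls. These groups are too small to be set apart from all genes by such counts. At 6 h none of the 7 J-domain genes was 2-fold apart from 0 h in either genotype. Of all genes, 9.08% were higher and 1.52% lower at 6 h under the label Zak-KO, and 8.94 and 1.39% in WT. At 48 h Dnajc2 was higher in both genotypes and Dnajc7 lower under the label Zak-KO. For all genes at 48 h, 18.5% were higher and 12.0% lower under the label Zak-KO, and 17.8 and 12.3% in WT. Dnajc7 (chr11:100582818-100620292), a J-domain protein with TPR repeats that binds HSP70 and HSP90, was at 199, 124 and 98.5 FPKM under the label Zak-KO, against 186, 152 and 100.4 FPKM in WT. Its 48 h log2 change of -1.01 under the label Zak-KO stood beside -0.88 in WT, and with a pseudocount of 5 FPKM it was -0.98.

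Dnajb6, which keeps aggregating proteins soluble, was at 105, 87.9 and 61.8 FPKM under the label Zak-KO, against 91.5, 95.9 and 68.0 FPKM in WT. Dnajb4 was at 8.68, 5.78 and 6.47 FPKM under the label Zak-KO, against 9.61, 7.76 and 5.32 FPKM in WT. The general J-domain partners of Hspa8 had values above those at 0 h instead: Dnaja1 changed by a log2 of 0.77 at 48 h under the label Zak-KO and 0.80 in WT, and Dnaja2 by 0.56 and 0.66, all short of 2-fold.

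Bag1, an HSP70 exchange factor that also binds Bcl2, was at 58.7, 61.0 and 75.9 FPKM under the label Zak-KO, against 55.5, 64.6 and 87.1 FPKM in WT. Bag2, which restrains the ubiquitin ligase acting on HSP70 clients, was at 0.14, 0.60 and 2.32 FPKM under the label Zak-KO, against 0.27, 0.61 and 3.13 FPKM in WT. Bag2 was called 2-fold higher at 48 h in both genotypes, from values so low that a pseudocount of 5 FPKM gives a log2 change of 0.51 under the label Zak-KO and 0.63 in WT.

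Hsf1, the main heat shock factor, was highest at 6 h, at 49.2, 62.5 and 33.8 FPKM at 0, 6 and 48 h under the label Zak-KO, against 43.2, 52.6 and 33.6 FPKM in WT. From 6 to 48 h its log2 change was -0.87 under the label Zak-KO and -0.63 in WT. Hsf2 lay between 5.88 and 7.40 FPKM under the label Zak-KO and between 6.11 and 6.73 FPKM in WT. A transcript level does not show the activity of either factor.

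Of the 44 genes, 31 had their highest value at 48 h under the label Zak-KO and 26 in WT, 7 and 12 at 6 h, and 6 and 6 at 0 h. Pfdn5, Hspa1b, Dnajb4, Dnajc7 and Bag3 were highest at 0 h in both. The time of the highest value was the same in both genotypes for 38 of the 44. These counts were not made over all genes, so they cannot be read as particular to the chaperones. Some rest on near ties, such as Cct5 under the label Zak-KO, at 227.66 FPKM at 6 h and 227.81 FPKM at 48 h.

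None of the 44 genes differed 2-fold between the genotype labels at any time. At 0 h, 22 of the 44 were below and 22 above WT in the library labelled Zak-KO, where 51.9% of all genes were below; the median log2 difference was -0.00, and the largest was 1.16-fold (2-fold higher genes made up 0.222% of all genes and lower ones 0.0483%). At 6 h the largest was Pfdn4, at 17.7 FPKM in the library labelled Zak-KO and 26.6 FPKM in WT, a log2 difference of -0.56 (0.116% of all genes were 2-fold higher and 0.135% lower). At 48 h it was Hspb11 (chr4:107253593-107284497), at 39.3 FPKM in the library labelled Zak-KO and 23.9 FPKM in WT, a log2 difference of 0.69 (1.80 and 0.435% of all genes). At 1.5-fold, 0 of the 44 were higher or lower at 0 h (0.706 and 0.416% of all genes) and at 6 h (0.783 and 0.870%). At 48 h Hspb11 alone was higher (3.46%) and 0 were lower (0.764%).

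Hspb11 carries a heat shock name but encodes an intraflagellar transport protein, IFT25. It was at 36.8, 22.4 and 39.3 FPKM at 0, 6 and 48 h in the libraries labelled Zak-KO, against 33.5, 30.6 and 23.9 FPKM in WT, so it lay below WT at 6 h and above it at 48 h. Its transcripts hold a 24-base sequence found in 50 or more genes. Of the 44 genes, 20 hold such a sequence. At 48 h their differences ran from -0.34 to 0.69, the latter that of Hspb11, with a median of -0.07. Those of the 24 genes without one ran from -0.32 to 0.16, also with a median of -0.07. The median of a group cannot speak to a single gene. The part of this sequence in the Hspb11 values was not tested.

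In the stimulated cells, small differences below WT outnumbered those above it. At 6 h, 33 of the 44 genes were below WT in the library labelled Zak-KO, where 53.1% of all genes were, and the median log2 difference was -0.11 against -0.02 for all genes. At 48 h, 34 of the 44 were below, where 53.9% of all genes were, and the median was -0.07 against -0.01. These 2 comparisons use different libraries, and 27 genes were below WT in both. The counts depend on the scaling, at 0 h too: the genes below WT at 0, 6 and 48 h numbered 19, 26 and 37 when every library was scaled to a common sum, 32, 28 and 41 with median ratios, and 24, 33 and 32 with upper quartiles. With median ratios, more genes were thus below WT at 0 h than at 6 h. Median ratio scaling moved the median of all genes at 48 h to -0.17. The lean below WT was not particular to the 44 genes. As deposited, 10, 12 and 12 of 14 chaperones of the endoplasmic reticulum were below WT at 0, 6 and 48 h (medians -0.06, -0.13 and -0.11). Of 37 other cytosolic chaperones and cofactors, 16, 23 and 29 were below (0.02, -0.08 and -0.06). Of 24 other mitochondrial import and protease genes, 11, 13 and 16 were below (0.00, -0.05 and -0.03).

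The 8 CCT genes lay on 1 side of WT at 6 and 48 h. All 8 were below WT at 6 h (log2 differences of -0.05 to -0.23) and at 48 h (-0.06 to -0.17), while at 0 h 4 were below and 4 above. Under the other scalings all 8 stayed below at both times, except that a common sum left 7 of 8 below at 6 h. At 0 h median ratios put 7 of 8 below, so the contrast with 0 h does not hold under that scaling. The summed CCT level was 771, 1416 and 1511 FPKM at 0, 6 and 48 h under the label Zak-KO, against 772, 1555 and 1636 FPKM in WT. Other groups lay on 1 side at a single time. All 7 J-domain genes were below WT at 6 h (median -0.19, against -0.15 for CCT) and 5 of 7 at 48 h. All 5 counted HSP70 and HSP110 genes were below WT at 48 h (median -0.11, as for CCT) and 3 of 5 at 6 h.

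Among the mitochondrial genes, Hspd1 had log2 differences of -0.27 at 6 h and -0.32 at 48 h, labelled Zak-KO minus WT. Hspa9 differed by -0.19 at 6 h and -0.27 at 48 h. Hspe1 differed by -0.18 at 6 h and -0.03 at 48 h. Trap1 and Dnaja3 lay at or above WT at both times, by 0.00 to 0.19. With median ratio scaling, all 6 mitochondrial genes were below WT at 48 h. As deposited, 3 of the 44 genes, Dnaja3, Bag3 and Hsf1, were above WT at all 3 times, and 13 were below it. Some of these differences were as small as 0.01, as for Bag3 at 0 and 48 h and Hsf1 at 48 h. The share of all genes with either pattern was not counted. None of the named differences reached 1.5-fold as deposited.

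**Figure D5:**
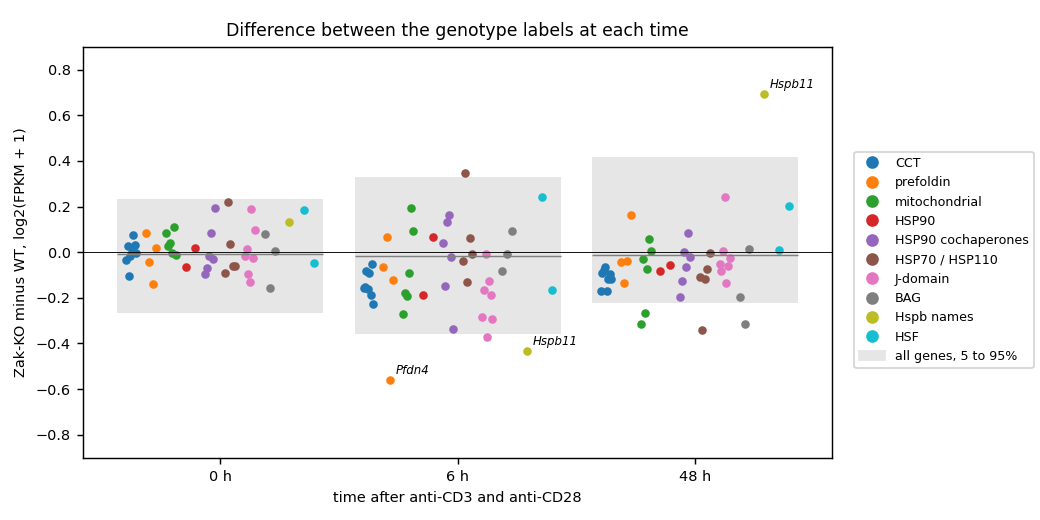
Difference in log2(FPKM + 1), labelled Zak-KO minus WT, for the 44 genes at 0, 6 and 48 h, coloured by role. Grey bands hold all genes between percentiles 5 and 95 and the grey line is their median. The blue CCT points lie on both sides of 0 at 0 h and below it at 6 and 48 h, and among the points outside the band are Pfdn4 and Hspb11 at 6 h, and Hspb11, Hspd1 and Hspa9 at 48 h.

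Genes with a large response in one genotype had a large response in the other. Over the 44 genes, Pearson's r between the log2 changes under the label Zak-KO and in WT was 0.97 for 6 h against 0 h, 0.98 for 48 h against 0 h and 0.81 for 48 h against 6 h. These r values describe genes within the same 6 libraries, which are not independent points, and r over all genes was not computed. The median difference of the responses, Zak-KO minus WT, was -0.12 at 6 h and -0.07 at 48 h against 0 h. It was not computed over all genes. The order of the 2 median responses at 6 h depends on the scaling. Under the label Zak-KO and in WT they were 0.74 and 0.80 as deposited and 0.71 and 0.71 with a common sum. With median ratios they were 0.80 and 0.78, and with upper quartiles 0.64 and 0.69.

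Genes with related tasks outside the list gave a backdrop. Of 37 other cytosolic chaperones and cofactors that passed the level filter, 6 were 2-fold higher at 6 h under the label Zak-KO and 7 in WT, none was lower, and the medians were 0.11 and 0.36, below the 0.74 and 0.80 of the 44 genes. Of all genes, 9.08% were higher at 6 h under the label Zak-KO and 8.94% in WT. At 48 h, 8 of the 37 were higher under the label Zak-KO and 12 in WT, with 1 lower in each and medians of 0.32 and 0.40. Among them, Hspa4l, another HSP110 protein, was at 28.0 FPKM at 6 h and 3.43 FPKM at 0 h under the label Zak-KO, and at 24.9 and 3.40 FPKM in WT. Ruvbl1, an ATPase that works with HSP90 in assembling large complexes, was at 59.4 FPKM at 6 h and 14.7 FPKM at 0 h under the label Zak-KO, and at 61.9 and 16.8 FPKM in WT.

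Of 24 other mitochondrial import and protease genes, 10 were 2-fold higher at 6 h under the label Zak-KO and 9 in WT, with medians of 0.85 and 0.80, and at 48 h 9 were higher in each. Timm8a1, a small chaperone of the intermembrane space, was at 38.6 FPKM at 6 h and 6.92 FPKM at 0 h under the label Zak-KO, and at 51.8 and 7.45 FPKM in WT. Of 14 chaperones of the endoplasmic reticulum, 6 were 2-fold higher at 6 h under the label Zak-KO and 8 in WT, with medians of 0.91 and 1.14, and at 48 h 7 and 6. All-gene shares at 48 h were 18.5 and 17.8%. Hspa5, the HSP70 of that compartment, was at 273 FPKM at 6 h and 59.1 FPKM at 0 h under the label Zak-KO, and at 329.5 and 64.0 FPKM in WT. None of the genes in these 3 lists was 2-fold lower at 6 h.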

How the data were processed

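The authors deposited 1 table of FPKM values per gene and library. Per the submitters' processing notes it was made with Bowtie and RSEM on the mm10 build. The sources used here give no version, setting or sequencing depth. RSEM shares out reads that fit several genes by a model. Of 18446 gene identifiers, 18326 had a symbol in the RefSeq table (GRCm38.p6) and 120 had none. The 46 genes, the other lists and the choices below were made with earlier results of these data known.

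With 1 library per group, 9 comparisons were made as differences of log2(FPKM + 1) without rescaling, as gene counts at 2-fold or more and as medians, over genes that averaged at least 1 FPKM in the 6 libraries. No test was run. Any of the 46 genes could be named; from each other list, only the 3 genes with the largest log2 change each way and a mean of 5 FPKM or more. Alternatives changed the pseudocount (0.1 or 5), the filter (none or 5), the scaling, the size rule (1.5-fold) or the counting of Hspa1a with Hspa1b.

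Shared sequence was counted as 50-base words in GENCODE M21 transcripts. A comparison of protein sequences was planned, but no protein table was used here. Promoter and transcript sequences were read, and the counting was checked on simulated data, in Python 3.11.15 with numpy 2.4.6, pandas 2.3.3 and matplotlib 3.10.9. No column of sample values (0) was left unused.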

Additional observations from a re-analysis of the deposited data

Results flagged for a closer look

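For 7 of the genes the 2 genotypes moved in opposite directions after stimulation, in 8 instances. The share of all genes that did so was not counted. Of the 8, 6 fell from 6 to 48 h, where the median change of the 44 genes was 0.17 under the label Zak-KO and 0.09 in WT. Signs of such small changes depend on the scaling. For that step under the label Zak-KO, median ratios put 6 of the 8 CCT genes below 0, against 1 as deposited. None of the 8 instances was tested, and each rests on 4 libraries. Each value below is the Zak-KO response minus the WT response in log2. From 6 to 48 h, Hspb11 gave the largest, 1.13, with changes of 0.78 under the label Zak-KO and -0.35 in WT, and its response from 0 to 48 h differed by 0.56. Over the same 6 to 48 h step, the difference was 0.61 for Dnajb4, 0.52 for Pfdn4, 0.36 for Hsf2, 0.31 for Ptges3 and 0.10 for Cct4. From 0 to 6 h, Dnajb6 differed by -0.31, with changes of -0.25 under the label Zak-KO and 0.07 in WT.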

How the results depend on the processing

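No gene called at 2-fold changed sign, but medians near 0 did. The median difference at 0 h, Zak-KO minus WT, was -0.00 as deposited and 0.01 with a common sum. From 6 to 48 h under the label Zak-KO, the CCT median of 0.07 became -0.03 with a common sum and -0.08 with median ratios, and the mitochondrial median of 0.08 became -0.02 and -0.06. Of the 243 alternative values for counts and medians, 221 stayed within the limits set and 22 moved; for single genes, 674 stayed and 34 moved. The 1.5-fold rule moved most counts, the cause being the rule itself. It gave 26 higher genes at 6 h against 0 h under the label Zak-KO and 28 in WT, with 2 lower under the label Zak-KO. Lower genes at 48 h against 0 h became 4 in each genotype. For 48 h against 6 h it gave 8 higher and 2 lower under the label Zak-KO, and 5 higher and 2 lower in WT. Between the labels at 48 h it gave 1 higher gene.

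Otherwise only small counts moved, and the cause was not tested. Lower genes at 48 h against 0 h under the label Zak-KO were 2 with a pseudocount of 0.1 FPKM, 0 with 5 FPKM and 2 with Hspa1a and Hspa1b summed. For 48 h against 6 h under the label Zak-KO, the lower count was 1 with a pseudocount of 0.1 FPKM, with median ratio scaling or with the summed pair. The higher count was 1 there with a pseudocount of 5 FPKM, a filter of 5 FPKM, a common sum or median ratio scaling, and 1 in WT with that pseudocount or that filter. The labels carry no replicate numbers. A fit that pairs the genotypes by time, with their difference in response as its error, was not run. Each comparison is of 1 library with 1, so none has a value without a library. Depth is unknown, so values near 1 FPKM are the least secure. Levels of Hspa1a, Hspa1b, Hspb1, Hsp90aa1, Hspd1 and Hspa8 depend on how the authors' model shared out reads, since 20% or more of their 50-base words occur in other genes.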
